A study of Mus musculus with 8 samples.

Results

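Quiescence regulators of T cells, 10 genes known as brakes on activation or division, were followed through an in vitro model of CD8 T cell dysfunction: Btg1, Btg2, Tob1, Tob2, Pik3ip1, Tsc22d3, Txnip, Slfn2, Slfn1 and Slfn5. They were chosen with earlier results of these data known and taken by gene symbol from the table of normalized counts. All 10 were found among its 24303 genes. The cells were P14 CD8 T cells, whose transgenic receptor recognises GP33, a peptide of lymphocytic choriomeningitis virus, and which were taken on a C57BL/6 background from spleens of uninfected male or female mice at least 8 weeks old. All were first activated with anti-CD3 and anti-CD28 for 2 days and then grown in IL-2 and IL-15. Effector cells were collected on day 7. The study calls its day 7 cells stimulated for 7 days (7d-stim), and the labels say no more of their treatment. Acute-2d cells had no stimulation after day 2, Acute-7d cells met GP33 from day 2 until day 7, and both rested without peptide until day 19. TDysf cells, labelled Dysfunctional, met GP33 repeatedly from day 2 until day 19 and received TGF-β1 from day 7. TDysf therefore differs from Acute-7d by both GP33 and TGF-β1 after day 7, and the effects of these agents cannot be told apart. Each group had 2 RNA-Seq libraries of sorted viable cells from separate biological replicates. Each p-value therefore rests on the spread between such replicates of a culture model, pooled over all 4 groups.

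A resting T cell is kept small and out of the cell cycle by active programs, which stimulation through the antigen receptor dismantles within hours. BTG and TOB proteins bring the CCR4-NOT deadenylase to messenger RNAs and shorten their poly(A) tails, which keeps the mRNA content of quiescent T cells low. Pik3ip1 is a membrane inhibitor of PI3 kinase. Txnip is an alpha-arrestin that binds thioredoxin and removes glucose transporters from the cell surface, and Tsc22d3 encodes GILZ, a glucocorticoid-induced leucine zipper protein. Slfn2 is the Schlafen protein whose loss in the elektra mouse leaves T cells unable to stay quiescent. Slfn1 slows thymocyte growth when overexpressed, and Slfn5 is a longer, nuclear member of the same family.

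Reads on genes ranged from 19382176 to 24856224 per library, and the member with the fewest reads in any library, Slfn5, still had 195. The 10 CD8 T cell markers were present in every library, with a summed level of 106608 to 122132 normalized counts in the 6 libraries outside TDysf and 214993 to 217469 in TDysf. Against Acute-7d, 3 of these markers were called higher in TDysf (Cd3e, Cd3g, Thy1) and 2 lower: Cd2 (mean 3458 against 8599 normalized counts) and Cd5 (692 against 1829). The markers of CD4 T cells summed to 14.6 to 52.8, those of B cells to 66.9 to 196, of myeloid cells to 263 to 648, of dendritic cells to 102 to 546, of NK cells to 1077 to 4547 and of erythroid cells to 21.3 to 42.6 normalized counts. Most of the NK sum came from Eomes and Klrb1c, with 3510 and 1005 in Acute-7d replicate 1, where Ncr1 had 30.1 and Klra8 had 2.23. Nearly all of the dendritic sum came from Xcr1. Both Effector libraries and Acute-7d replicate 1 carry the prefix RESUB in their names, the meaning of which the sources used here do not give. The same 3 libraries had 53.5 to 115 normalized counts of Xist, against 21871 to 30427 in the other 5, and were the ones with the Y-linked Ddx3y above 1000. By these genes the 3 prefixed libraries read as male and the other 5 as female, so prefix and sex run together. The Effector group is thus wholly prefixed, and TDysf and Acute-2d are wholly unprefixed. A possible effect of the prefix or of sex cannot be told apart from the group in a comparison between those. The 2 Acute-7d libraries are 1 of each kind. The spread that all comparisons share in the fit therefore includes a difference of prefix and sex. Within-prefix values from the Acute-7d libraries are given beside the members called in its comparisons. The part of the marker levels in the differences was not tested. In bulk RNA of this kind, fewer cells that express a gene and less of its RNA per cell cannot be told apart.

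The 10 genes followed no single course. Txnip and Btg1 lay at percentiles 99.88 and 99.42 of mean level among all genes of the table, and Tsc22d3 was the lowest at percentile 71.82. Per kilobase of the longest annotated transcript, the mean over the 8 libraries ran from 13556 normalized counts for Txnip and 3277 for Btg1 through 2618 for Slfn2 and 1574 for Slfn1 down to 242 for Tob1 and 176 for Slfn5. Of the 10, 5 (Btg2, Tob1, Pik3ip1, Tsc22d3, Txnip) had their highest group mean in Acute-2d, the 3 Schlafen genes had it in Effector, and Btg1 and Tob2 had it in TDysf. The ratio of the highest to the lowest group mean was 10.6 for Slfn5, 5.63 for Btg1, 5.19 for Slfn1 and 4.91 for Txnip, and only 1.92 for Btg2 and 1.30 for Tob2.

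**Figure D1:**
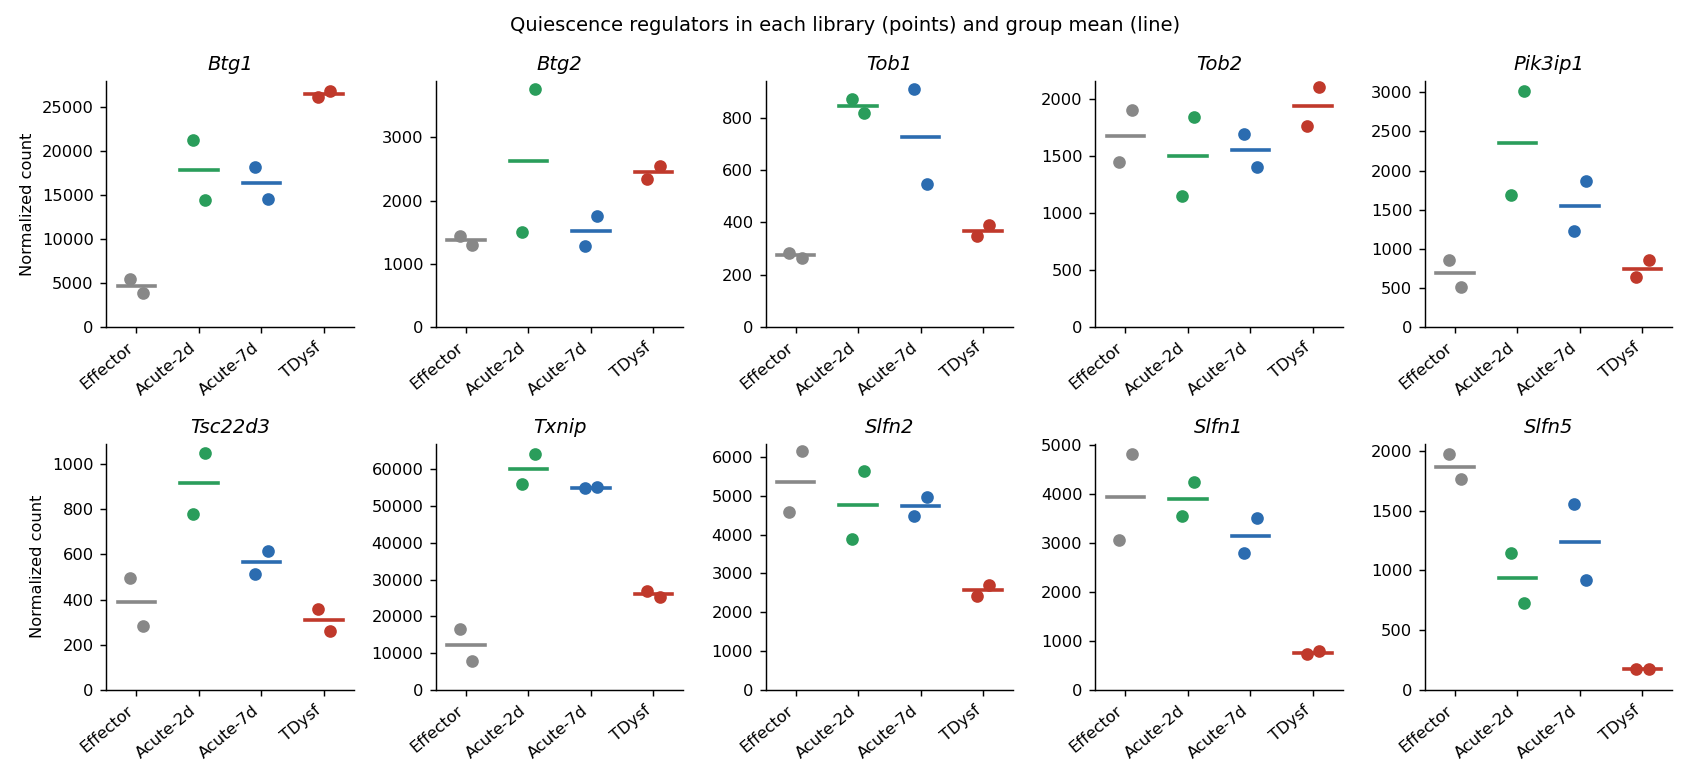
Normalized count (linear axis from 0) of each quiescence regulator in the 4 groups. Each point is 1 library and each line is the mean of 2 libraries. Txnip and Tob1 stand highest in the rested groups, Btg1 is highest in TDysf, and Slfn1 and Slfn5 are lowest in TDysf with no overlap with any other group.

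Differences were tested with limma on log2(normalized count + 1) over the whole table. A gene was called when its fold change was at least 2 and its Benjamini-Hochberg adjusted p, over all 24303 genes, was under 0.05. In Acute-7d against Effector, the comparison of rested cells with day 7 cells, 3 of 10 members were called (Btg1, Tob1, Txnip), all higher in Acute-7d, where 8.06% of all genes were called, 3.88% higher and 4.18% lower. The same 3 members were called higher in Acute-2d against Effector, where 8.78% of all genes were called, 4.48% higher and 4.31% lower. In TDysf against Effector 4 members were called, Btg1 higher and Slfn1, Slfn2 and Slfn5 lower, where 9.22% of all genes were called, 4.47% higher and 4.75% lower.

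Between TDysf and Acute-7d 2 members were called, Slfn1 and Slfn5, both lower in TDysf, where 5.57% of all genes were called, 2.54% higher and 3.03% lower. Between TDysf and Acute-2d 3 members were called lower, Tob1, Slfn1 and Slfn5, where 7.35% of all genes were called, 3.14% higher and 4.21% lower. None was called by limma in Acute-7d against Acute-2d, and 0 members had an unadjusted p under 0.05 there, where 0.169% of all genes were called, 0.0782% higher and 0.0905% lower. These shares cover genes at every level. When only genes with a mean of at least 50 normalized counts were tested, 12.3% were called in TDysf against Acute-7d and 14.1% in TDysf against Acute-2d. Against Effector the shares were then 18.4% in TDysf, 16.1% in Acute-7d and 17.7% in Acute-2d.

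The 2 libraries of TDysf and the 2 of Acute-7d did not overlap for any of the 10 members, where the same held for 54.8% of all genes, those at low levels included. Of the 10, 7 lay below Acute-7d (Tob1, Pik3ip1, Tsc22d3, Txnip and the 3 Schlafen genes), and the median log2 fold change of the 10 was -0.91 where that of all genes was 0. Libraries also stood apart for 8 members between TDysf and Acute-2d (54.3% of all genes), 7 between TDysf and Effector (56.4%), 6 between Acute-7d and Effector (54.9%) and 7 between Acute-2d and Effector (54.2%). The median log2 fold change of the members was 0.36 in Acute-7d against Effector, 0.19 in TDysf against Effector, 1.03 in Acute-2d against Effector and -1.20 in TDysf against Acute-2d. The comparisons share libraries, so these medians are not independent of each other.

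**Figure D2:**
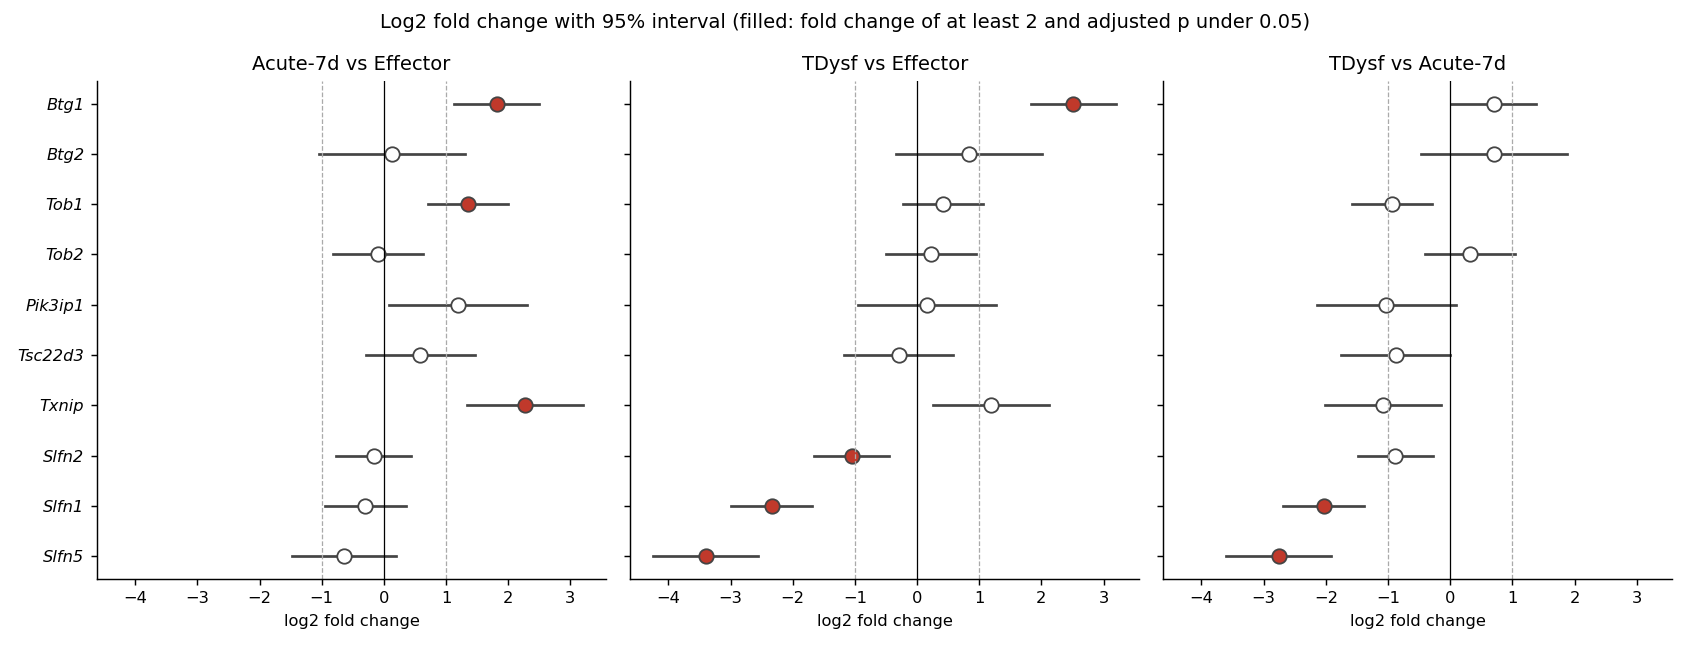
Log2 fold change (x axis) of each member in 3 comparisons, as limma estimate (point) with its 95% interval (line). Filled points were called, and dashed lines mark a 2-fold change. Btg1, Tob1 and Txnip are called on the right in Acute-7d against Effector, and Slfn1 and Slfn5 are called on the left in both comparisons with TDysf.

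Btg1 was called higher than Effector in TDysf and in both rested groups. It is an anti-proliferation factor that binds the CCR4-NOT deadenylase and lies on the plus strand of chromosome 10 (GRCm38, 96617006 to 96622809). Its normalized counts were 5482 and 3941 in Effector, 21332 and 14462 in Acute-2d, 18242 and 14621 in Acute-7d and 26179.5 and 26853 in TDysf. All 6 day 19 libraries lay above both Effector libraries, and both TDysf libraries lay above all others. Against Effector, Btg1 rose 5.70-fold in TDysf (log2 2.51 ± 0.26 SE, adjusted p = 0.00883), 3.51-fold in Acute-7d (log2 1.81 ± 0.26 SE, adjusted p = 0.0212) and 3.78-fold in Acute-2d (adjusted p = 0.0177). The difference between TDysf and Acute-7d was 0.70 on the log2 scale with a 95% interval of 0.02 to 1.38 and did not pass the test (adjusted p = 0.183). Between the prefixed Acute-7d replicate 1 and the prefixed Effector libraries the log2 difference of Btg1 was 1.97. With the RESUB prefix as a term in the fit, no Btg1 call against Effector passed (log2 1.97 to 2.83, adjusted p = 0.0645 to 0.139). None passed with the 2 groups fitted alone either (adjusted p = 0.0548 to 0.117). Leaving out TDysf replicate 1 ended the call of TDysf against Effector (log2 2.53, adjusted p = 0.0594), and the call of Acute-7d was lost without Effector replicate 2, either Acute-7d replicate or either TDysf replicate (log2 1.57 to 1.97, adjusted p = 0.0587 to 0.101). The call of Acute-2d was lost without Effector replicate 2, Acute-2d replicate 1 or either TDysf replicate (log2 1.64 to 1.92, adjusted p = 0.0509 to 0.0687).

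The promoter of Btg1 is shown because it holds a forkhead motif, the kind that FOXO factors bind in resting T cells. The 250 bases before the RefSeq start are given for GRCm38, chr10:96616751-96617000, plus strand, with the motif (GTAAACA read on the other strand) and a TATAAA box in capitals.
Btg1: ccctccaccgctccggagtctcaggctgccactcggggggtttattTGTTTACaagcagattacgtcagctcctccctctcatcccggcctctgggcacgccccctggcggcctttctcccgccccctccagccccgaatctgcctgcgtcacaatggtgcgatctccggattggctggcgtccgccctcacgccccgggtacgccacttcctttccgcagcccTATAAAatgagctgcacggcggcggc
The forkhead motif began 204 bases before the start and the TATAAA box 26 bases before it. In all, 5 motifs were searched on both strands of 300-base windows, from 250 bases before to 50 bases after each start, in 12 windows of the 10 members. GTAAACA stood in the windows of Btg1 and Txnip and in 3.65% of all 32851 windows. TATAAA stood in those of Btg1 and Tob1 and in 13.6% of all windows, and CACGTG, the E-box core, stood in none of the 12 and in 7.15% of all windows. These matches describe letters only, and no binding was measured.

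Btg2 and the TOB genes behaved differently from Btg1. Btg2, a paralog that p53 induces, lies on the minus strand of chromosome 1 (GRCm38, 134075170 to 134079120). It had 1447 and 1301 normalized counts in Effector, 1499 and 3768 in Acute-2d, 1281 and 1755 in Acute-7d and 2347 and 2551 in TDysf. The Acute-2d libraries were far apart and spanned the TDysf values, and no comparison passed the test. The log2 difference between TDysf and Acute-7d was 0.71 with a 95% interval of -0.47 to 1.88 (adjusted p = 0.394), which spans both no difference and one of over 2-fold.

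Tob1, a negative regulator of T cell proliferation and cytokine transcription, lies on the plus strand of chromosome 11 (GRCm38, 94211454 to 94215495). Its normalized counts were 283 and 266 in Effector, 872 and 819 in Acute-2d, 908 and 545 in Acute-7d and 347 and 389.7 in TDysf. The 4 rested libraries were all above the 4 others, while TDysf lay just above Effector without overlap. Tob1 rose 2.56-fold in Acute-7d against Effector (log2 1.36 ± 0.25 SE, adjusted p = 0.0313) and 3.07-fold in Acute-2d (adjusted p = 0.0215), and was lower in TDysf than in Acute-2d by 2.30-fold (log2 -1.20 ± 0.25 SE, adjusted p = 0.0449). In TDysf against Acute-7d the log2 difference was -0.93, with a 95% interval of -1.58 to -0.29 (adjusted p = 0.0918). It passed the test without Acute-7d replicate 2 (log2 -1.30, adjusted p = 0.0238), which leaves only the prefixed replicate 1, while the log2 difference of TDysf from the unprefixed replicate 2 was -0.57. Against Effector, the prefixed Acute-7d replicate 1 stood 1.72 and the unprefixed replicate 2 stood 0.99 higher in Tob1 on the log2 scale. Between TDysf and Effector it was 0.42, with an interval of -0.22 to 1.06. With the 2 groups fitted alone, Tob1 was not called in Acute-7d against Effector (adjusted p = 0.153). The call of TDysf against Acute-2d was lost without any 1 Effector, Acute-2d or TDysf replicate (log2 -1.28 to -1.12, adjusted p = 0.0761 to 0.189). That of Acute-7d against Effector was lost without any 1 Effector, Acute-2d or TDysf replicate (log2 1.31 to 1.40, adjusted p = 0.0677 to 0.117) and without Acute-7d replicate 1 (log2 0.99, under a 2-fold change). The call of Acute-2d against Effector was lost without any Effector, Acute-2d or TDysf replicate (log2 1.57 to 1.67, adjusted p = 0.0541 to 0.0976).

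Tob2, the close paralog of Tob1, lies on the minus strand of chromosome 15 (GRCm38, 81848272 to 81858796). It had 1444 and 1901 normalized counts in Effector, 1150.1 and 1842 in Acute-2d, 1696 and 1407 in Acute-7d and 1766 and 2108 in TDysf. Effector, Acute-2d and Acute-7d overlapped with each other, and Tob2 was called in no comparison. Its log2 difference between TDysf and Acute-7d was 0.32, with a 95% interval of -0.40 to 1.05. Btg3, a further paralog, had group means of 390.4 in TDysf, 461 in Acute-7d and 223 normalized counts in Effector, and was not called either (TDysf against Acute-7d, log2 -0.24, adjusted p = 0.797).

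The machinery that BTG and TOB proteins recruit was rarely called. Of 16 listed partners and deadenylation genes, which include the CCR4-NOT subunits and poly(A)-binding proteins, 0 were called by limma in TDysf against Acute-7d or TDysf against Effector, with 3 at an unadjusted p under 0.05 in each. Cnot9 was called lower in Acute-7d than in Effector (log2 -1.16, adjusted p = 0.0301), a call lost without any 1 library other than Effector replicate 1. Without either Acute-2d replicate, 1 other gene of the list was called higher. The list's median log2 fold change was 0.06 in TDysf against Acute-7d and -0.13 in Acute-7d against Effector, where that of all genes was 0. Pabpc1, the main cytoplasmic poly(A)-binding protein, had means of 47532 normalized counts in TDysf, 45317 in Acute-7d and 42385 in Effector. Cnot1, the scaffold of the complex, had 6052 in TDysf and 5820 in Acute-7d (log2 difference 0.06, adjusted p = 0.959).

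Pik3ip1 was highest in the rested cells and near the Effector level in TDysf, but no difference passed the test. It lies on the plus strand of chromosome 11 (GRCm38, 3330401 to 3342971). Its normalized counts were 863 and 509.6 in Effector, 1689 and 3017 in Acute-2d, 1228 and 1861 in Acute-7d and 643 and 855 in TDysf. Each rested library lay above each Effector and TDysf library, and TDysf lay within the range of Effector. The log2 fold change was -1.03 ± 0.43 SE in TDysf against Acute-7d (adjusted p = 0.220), -1.61 ± 0.43 SE in TDysf against Acute-2d (adjusted p = 0.0850) and 1.77 ± 0.43 SE in Acute-2d against Effector (adjusted p = 0.0565). When only genes with a mean of at least 50 normalized counts were tested, the latter 2 passed (adjusted p = 0.0165 and 0.00902), as did Acute-7d against Effector (log2 1.19, adjusted p = 0.0383, against 0.143 over all genes).

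Of the PI3K, AKT, mTOR and FOXO pathway, single genes were called in both directions. Of 21 listed, 1 was called higher and 2 lower in TDysf against Acute-7d, with a median log2 fold change of 0.15. Pik3cb, the catalytic p110 beta subunit, had 601 and 559 normalized counts in TDysf and 117 and 140.4 in Acute-7d (log2 2.17 ± 0.12 SE, adjusted p = 0.00306). Pik3r2, the p85 beta regulatory subunit, had 61.3 and 45.4 in TDysf and 397 and 372 in Acute-7d (log2 -2.84, adjusted p = 0.00517). Pik3r5, the p101 regulatory subunit of PI3 kinase gamma, had 1323 and 1358 in TDysf and 5356 and 4066 in Acute-7d (log2 -1.80, adjusted p = 0.00621). The kinase subunits thus divided in direction while their inhibitor Pik3ip1 was not called. Rested Acute-7d cells had 2 of the list called higher than Effector, Foxo3 (log2 1.35, adjusted p = 0.0152) and Foxo1 (log2 1.15, adjusted p = 0.00270), the transcription factors that AKT holds out of the nucleus, and 1 of the 2 calls was lost without either Acute-7d replicate. In TDysf against Effector 2 were called higher and 2 lower, and Foxo3 was among the higher (log2 1.32, adjusted p = 0.0109). Without TDysf replicate 1 these were 1 higher and 1 lower, without TDysf replicate 2 they were 2 and 1, and without Effector replicate 2 they were 3 and 1.

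Among 11 listed target genes of FOXO factors in T cells, 4 were called lower in TDysf than in Acute-7d and none higher, with a median log2 fold change of -0.94. S1pr1, the receptor by which lymphocytes leave lymphoid organs, had 68.2 and 89.0 normalized counts in TDysf and 3576 and 3391 in Acute-7d (log2 -5.46, adjusted p = 0.00133). Ccr7, a chemokine receptor for entry into lymph nodes, had 38.9 and 66.7 against 1718 and 1790.3 (log2 -5.08, adjusted p = 0.0254). Neither gene overlapped between the groups. The number called lower was 3 without any 1 Acute-2d, Acute-7d or TDysf replicate. Against Effector, 6 were called higher and 0 lower in Acute-7d, and 2 higher and 4 lower in TDysf. The 6 became 1 to 3 without Effector replicate 2 or any 1 Acute-7d or TDysf replicate, and the 2 higher in TDysf became 0 without Effector replicate 1 or either TDysf replicate and 1 without Effector replicate 2 or either Acute-7d replicate.

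Txnip rose most of the 10 in both rested groups and lay between them and Effector in TDysf. It lies on the plus strand of chromosome 3 (GRCm38, 96557957 to 96561883). Its normalized counts were 16542 and 7892 in Effector, 55964 and 64109.9 in Acute-2d, 54862 and 55129 in Acute-7d and 26809.7 and 25263 in TDysf. TDysf overlapped with neither side. Txnip rose 4.81-fold in Acute-7d against Effector (log2 2.27 ± 0.36 SE, adjusted p = 0.0248) and 5.24-fold in Acute-2d (log2 2.39 ± 0.36 SE, adjusted p = 0.0210). TDysf was 2.11-fold below Acute-7d (log2 -1.08, 95% interval -2.01 to -0.14, adjusted p = 0.146) and 2.28-fold above Effector (log2 1.19, interval 0.25 to 2.12, adjusted p = 0.0957), and neither passed the test over all genes. Both passed among genes with a mean of at least 50 normalized counts (adjusted p = 0.0401 and 0.0206), and also without Effector replicate 1 (TDysf against Acute-7d, adjusted p = 0.0214, and against Effector, log2 1.72, adjusted p = 0.0101). Without Effector replicate 2, TDysf against Acute-7d passed as well (adjusted p = 0.0233). Without either Effector replicate, TDysf against Acute-2d passed too (log2 -1.20, adjusted p = 0.0144 and 0.0154, against 0.109 with all libraries). The call of Acute-7d against Effector was lost without any 1 Acute-2d, Acute-7d or TDysf replicate (log2 2.26 to 2.27, adjusted p = 0.0550 to 0.113), and that of Acute-2d without any Acute-2d or TDysf replicate (log2 2.29 to 2.49, adjusted p = 0.0574 to 0.0873). Between the prefixed Acute-7d replicate 1 and the prefixed Effector libraries the log2 difference was 2.26. With the RESUB prefix as a term, Txnip was called against Effector in neither Acute-7d (adjusted p = 0.0929) nor Acute-2d (adjusted p = 0.209). The same held with the 2 groups fitted alone (adjusted p = 0.143 and 0.133).

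The promoter of Txnip is shown with 2 of the searched motifs in capitals: a palindrome in the form of a glucocorticoid receptor element and a forkhead motif GTAAACA. The bases precede the RefSeq start on GRCm38, chr3:96557707-96557956, plus strand, and overlap annotated exons of the antisense gene Gm15441.
Txnip: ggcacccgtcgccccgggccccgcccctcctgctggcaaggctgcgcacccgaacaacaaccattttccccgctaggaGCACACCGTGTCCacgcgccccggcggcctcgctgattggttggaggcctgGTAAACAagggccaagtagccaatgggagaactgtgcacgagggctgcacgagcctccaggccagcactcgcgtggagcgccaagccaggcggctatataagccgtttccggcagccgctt
The palindrome reads GCACACCGTGTCC and began 172 bases before the start, and GTAAACA began 121 bases before it. A glucocorticoid receptor element of this form stood in 0.475% of all windows and in no other member's, Tsc22d3 included. Gm15441 itself had 7.08 to 19.5 normalized counts, far below Txnip in every library.

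Of the other alpha-arrestins, the family of adaptors to which Txnip belongs, Arrdc3 was called higher in Acute-7d than in Effector (1392 against 303 normalized counts in the mean, log2 2.14, adjusted p = 0.0339), as Txnip was. Arrdc4, the nearest relative of Txnip, had 160 and 78.2 in Effector, 429 and 246 in Acute-2d, 255 and 255 in Acute-7d and 171 and 105 in TDysf. Its log2 difference of 1.18 between Acute-7d and Effector did not pass the test (adjusted p = 0.178), and Arrdc1 and Arrdc2 were not called. Of 12 listed arrestin, thioredoxin and related genes in the table, 1 was called in TDysf against Acute-7d, the glucose transporter gene Slc2a3, with 3211 and 3406 normalized counts in TDysf and 7732 and 7735 in Acute-7d (log2 -1.23, adjusted p = 0.0356). The list's median log2 fold change there was -0.22. The call of Slc2a3 was lost without any 1 Acute-2d, Acute-7d or TDysf replicate, and without Acute-7d replicate 2 another gene of the list was called, higher. Against Effector 2 were called higher and 1 lower in Acute-7d, and Slc2a1, which encodes the GLUT1 transporter that Txnip protein acts on, was the second higher one (log2 1.29, adjusted p = 0.0298). Both higher calls were lost without any 1 Effector, Acute-7d or TDysf replicate. The number called lower was 2 without Effector replicate 1 and 0 without any 1 Acute-7d or TDysf replicate. In TDysf against Effector 1 was called lower, with 2 without Effector replicate 1 and 0 without either TDysf replicate.

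Tsc22d3 had the lowest mean level of the 10 and was called in no comparison. It lies on the minus strand of the X chromosome (GRCm38, 140539528 to 140600659). Its normalized counts were 497 and 283 in Effector, 780.4 and 1051 in Acute-2d, 514 and 615 in Acute-7d and 357 and 262 in TDysf. Both Acute-2d libraries lay above all others, and TDysf overlapped with Effector. The log2 difference was -1.56 ± 0.34 SE in TDysf against Acute-2d (adjusted p = 0.0507), 1.27 ± 0.34 SE in Acute-2d against Effector (adjusted p = 0.0697) and -0.88 in TDysf against Acute-7d (95% interval -1.75 to -0.000973, adjusted p = 0.191). The first passed without Effector replicate 1 or 2 (adjusted p = 0.0354 and 0.0353) and the second without Effector replicate 1 (log2 1.68, adjusted p = 0.0413). Both passed among genes with a mean of at least 50 (adjusted p = 0.00883 and 0.0148).

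Few relatives and glucocorticoid receptor targets listed with Tsc22d3 were called between TDysf and Acute-7d. Of 11 genes, 1 was called in TDysf against Acute-7d, Nr3c1, the glucocorticoid receptor. It had 1352 and 1426 normalized counts in TDysf and 2814 and 3011 in Acute-7d (log2 -1.07, adjusted p = 0.0263). The call was lost without either Acute-7d replicate or TDysf replicate 1, with 0 called, and without either Effector replicate there were 2 called lower. Against Effector 3 were called higher in Acute-7d, among them Nr3c1 (log2 1.19, adjusted p = 0.0197) and Tsc22d1 (log2 1.01, adjusted p = 0.0383), and 1 lower, and in TDysf 2 were called higher and 1 lower. Without Effector replicate 2 or any 1 Acute-7d or TDysf replicate the 3 became 0 or 1, and without an Acute-2d or TDysf replicate the 2 became 0 or 1. The 1 lower in Acute-7d became 2 without either Acute-2d replicate and 0 without Effector replicate 2 or any 1 Acute-7d or TDysf replicate, and the 1 lower in TDysf became 0 without Effector replicate 2 or any 1 Acute-7d or TDysf replicate. Tsc22d1 had 121 and 174 normalized counts in TDysf and 263 and 268 in Acute-7d (log2 -0.87, adjusted p = 0.0705). Tsc22d2 and Tsc22d4 differed by -0.01 and 0.07 on the log2 scale between those groups.

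Slfn1 and Slfn5 were the members called lower in TDysf against every other group, and Slfn2 was called lower against Effector. The 3 genes lie on the plus strand of chromosome 11 within a cluster of Schlafen genes that spans 344.4 kb. Slfn5 (GRCm38, 82951349 to 82964840) comes first, and Slfn2 (83065112 to 83070678) and Slfn1 (83116849 to 83122670) start 113.8 and 165.5 kb after it. Slfn5 had 1969 and 1759 normalized counts in Effector, 1141 and 729 in Acute-2d, 1552 and 916 in Acute-7d and 177 and 173 in TDysf. The highest TDysf library of Slfn5 was thus far below the lowest library of any other group. Both rested groups also lay below Effector without overlap, though neither difference was called. The log2 difference from Effector was -1.03 in Acute-2d (95% interval -1.87 to -0.19, adjusted p = 0.103) and -0.64 in Acute-7d (-1.48 to 0.20, adjusted p = 0.274). That of Acute-2d passed among genes with a mean of at least 50 (adjusted p = 0.0262). Slfn5 fell 6.77-fold against Acute-7d (log2 -2.76 ± 0.32 SE, adjusted p = 0.0147), 5.18-fold against Acute-2d (log2 -2.37 ± 0.32 SE, adjusted p = 0.0162) and 10.6-fold against Effector (log2 -3.40 ± 0.32 SE, adjusted p = 0.00752). In Acute-7d the prefixed replicate 1 was higher than replicate 2 by 0.76 on the log2 scale, and TDysf lay 2.38 below the unprefixed replicate 2.

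Slfn1 had 3062 and 4815 normalized counts in Effector, 3555 and 4246 in Acute-2d, 2781 and 3497 in Acute-7d and 734 and 786 in TDysf. Effector overlapped with both rested groups, and TDysf with none. Slfn1 fell 4.10-fold against Acute-7d (log2 -2.04 ± 0.25 SE, adjusted p = 0.0163), 5.11-fold against Acute-2d (adjusted p = 0.00911) and 5.05-fold against Effector (adjusted p = 0.00936). Its log2 difference between Acute-7d and Effector was -0.30, with a 95% interval of -0.95 to 0.35 (adjusted p = 0.521). TDysf lay 2.20 on the log2 scale below the unprefixed Acute-7d replicate 2.

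Slfn1 and Slfn5 each lost some calls without single libraries. Their direction in the TDysf comparisons could not change this way, because both TDysf libraries lay below all others. In TDysf against Acute-7d the call of Slfn1 was lost without any 1 of the 4 libraries compared (log2 -2.20 to -1.87, adjusted p = 0.0528 to 0.0991), and that of Slfn5 without Acute-7d replicate 1 or either TDysf replicate (log2 -2.77 to -2.38, adjusted p = 0.0512 to 0.0890). With the RESUB prefix as a term neither passed (adjusted p = 0.0676 for Slfn1 and 0.0527 for Slfn5). In TDysf against Acute-2d the call of Slfn1 was lost without TDysf replicate 1 (log2 -2.30, adjusted p = 0.0640), and that of Slfn5 without Acute-2d replicate 1 or either TDysf replicate (log2 -2.39 to -2.05, adjusted p = 0.0615 to 0.0921). In TDysf against Effector, of the single libraries, only leaving out TDysf replicate 1 ended both calls (log2 -2.29 and -3.42). Neither passed there with the RESUB term (log2 -2.67 and -2.64, adjusted p = 0.0998 for Slfn1 and 0.093 for Slfn5). Slfn1 also lost that call when the 2 groups were fitted alone (adjusted p = 0.0704). Slfn5 in such fits lost its calls against Acute-7d and Acute-2d (adjusted p = 0.0576 and 0.0505).

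Slfn2 had 4583 and 6156 normalized counts in Effector, 3887 and 5633 in Acute-2d, 4492 and 4977 in Acute-7d and 2417 and 2712 in TDysf. Both TDysf libraries were below the 6 others, which overlapped across their groups. Slfn2 fell 2.07-fold against Effector (log2 -1.05 ± 0.23 SE, adjusted p = 0.0455), while the log2 differences of -0.88 from Acute-7d (adjusted p = 0.0906) and -0.87 from Acute-2d (adjusted p = 0.0846) did not pass. With the RESUB prefix as a term Slfn2 was not called against Effector (log2 -1.20, adjusted p = 0.277), nor with the 2 groups fitted alone (adjusted p = 0.11). The call against Effector was lost without any 1 Effector, Acute-7d or TDysf replicate (log2 -1.27 to -0.84, adjusted p = 0.0540 to 0.188).

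The promoters of Slfn1 and Slfn2 are shown together because the pair shares a run of letters close to the start, which was looked for after the values had been seen. The 250 bases before each RefSeq start are given for GRCm38, plus strand, chr11:83116570-83116819 for Slfn1 and chr11:83064862-83065111 for Slfn2, with the shared run in capitals.
Slfn1: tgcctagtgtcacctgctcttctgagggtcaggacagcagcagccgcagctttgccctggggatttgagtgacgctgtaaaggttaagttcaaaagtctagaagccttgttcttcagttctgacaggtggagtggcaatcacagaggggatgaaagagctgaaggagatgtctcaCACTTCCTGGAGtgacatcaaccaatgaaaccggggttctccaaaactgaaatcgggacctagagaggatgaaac
Slfn2: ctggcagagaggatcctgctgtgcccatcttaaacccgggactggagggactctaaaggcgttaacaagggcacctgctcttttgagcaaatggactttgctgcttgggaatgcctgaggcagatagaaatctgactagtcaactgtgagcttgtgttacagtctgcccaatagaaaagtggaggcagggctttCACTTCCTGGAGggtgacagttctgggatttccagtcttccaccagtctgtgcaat
The run has 12 bases and starts 75 bases before the start of Slfn1 and 56 bases before that of Slfn2. It stood in 12 of 32851 promoter windows, or 0.0365%. The run was taken from this pair, whose windows are among the 12, so this share does not say how often 2 promoters share a run of that length. The window of Slfn5 held instead GAAAAAGAAA, in the form of an interferon-stimulated response element (GAAA on either side of any 2 bases), 155 bases before the RefSeq start. That form stood in 3.44% of all windows and in no other member's. The 250 bases before this start of Slfn5 (82951852 to 82952101) lie inside the GENCODE span of the gene given above. Of them, 117 overlap annotated exons.

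The other listed Schlafen genes of the cluster were not called alongside them. Of 5 listed genes in the table, 0 were called by limma in TDysf against Acute-7d, and 0 had an unadjusted p under 0.05. Against Effector, 0 were called by limma in TDysf or in Acute-7d, with 3 at an unadjusted p under 0.05 in each, and without Effector replicate 1 there was 1 called lower in each. In Acute-7d this was also so without either Acute-2d replicate. Slfn8, between Slfn9 and Slfn2, had 3002 and 3363 normalized counts in Effector, 2233 and 1763 in Acute-2d, 3138 and 2265 in Acute-7d and 2089 and 2145 in TDysf (TDysf against Acute-7d, log2 -0.33, adjusted p = 0.365). Slfn9, the direct neighbour of Slfn5, had 711 and 677 in TDysf and 473 and 407 in Acute-7d (log2 0.66, adjusted p = 0.289). Of the 6 comparisons, Slfn9 was called only in Acute-2d against Effector, where it was lower (log2 -1.66, adjusted p = 0.0360). Slfn3 differed by -0.09 on the log2 scale between TDysf and Acute-7d, and Slfn4 and Slfn14 were near the floor. The pseudogene Slfn10-ps, between Slfn8 and Slfn2, was not in the list. It had 516 and 512 normalized counts in Effector, 170 and 146 in Acute-2d, 244 and 187 in Acute-7d and 207 and 180 in TDysf. Slfn8 and Slfn9 are similar in sequence, so the split of reads between them is uncertain. The antisense genes over Slfn5 and Slfn2, Slfn5os and Gm20234, had at most 4.24 and 16.7 normalized counts.

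**Figure D3:**
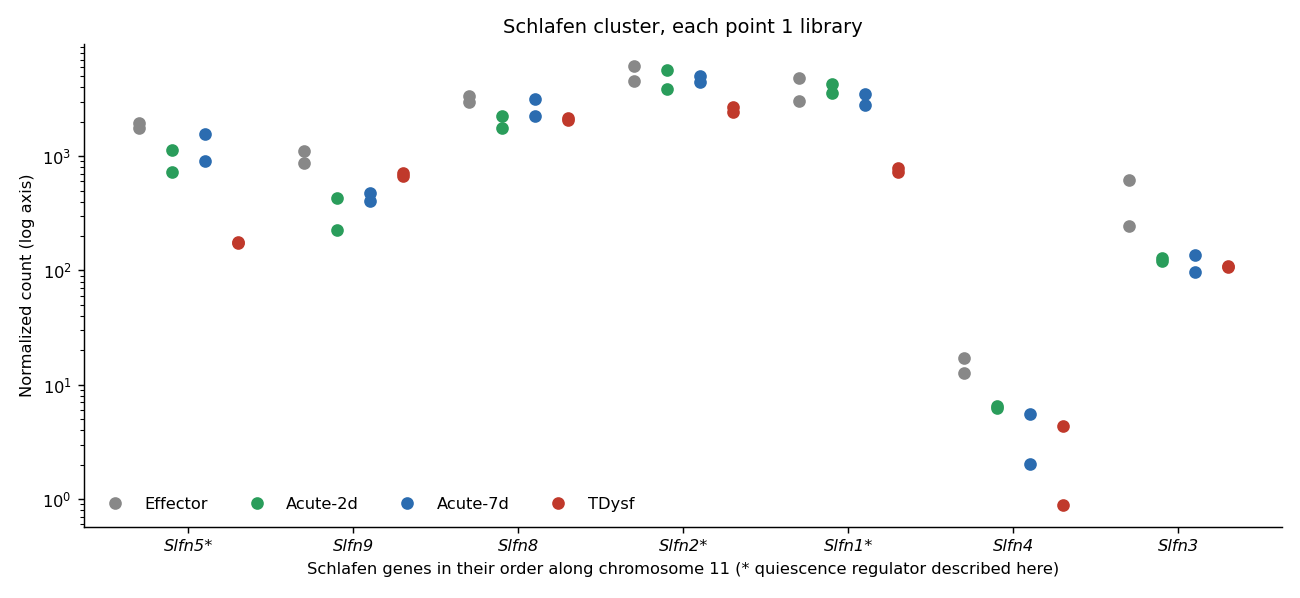
Normalized count (log axis) of 7 Schlafen genes, placed in their order along chromosome 11, with each point 1 library. The red TDysf points of Slfn5, Slfn2 and Slfn1 lie below all other groups, whereas those of Slfn9 and Slfn8, which lie between Slfn5 and Slfn2, do not.

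Several Schlafen genes are induced by type I interferon, so 24 interferon-stimulated genes were read beside them. In TDysf against Acute-7d 1 was called higher and 1 lower, with a median log2 fold change of -0.42. Isg20 had 3753 and 4623 normalized counts in TDysf and 688 and 660.4 in Acute-7d (log2 2.63, adjusted p = 0.00540), and Oasl1 had 3.45 and 3.56 against 24.5 and 23.2 (log2 -2.47, adjusted p = 0.0153), close to the floor of 3 reads. The call of Oasl1 was lost without either Acute-7d replicate or TDysf replicate 1. Against Effector 14 were called lower in Acute-7d and 17 lower and 1 higher in TDysf, with medians of -1.58 and -2.01. Between Acute-7d and Effector the log2 difference was -0.30 for Slfn1 (95% interval -0.95 to 0.35) and -0.17 for Slfn2 (-0.77 to 0.43). For Slfn5 it was -0.64 (-1.48 to 0.20), and none of these genes was called. A part of interferon in the Schlafen levels was not tested. The 14 became 0 to 6 without Effector replicate 2 or any 1 Acute-2d, Acute-7d or TDysf replicate, and the 17 became 10 without Effector replicate 2, 3 without TDysf replicate 1 and 7 without TDysf replicate 2. The 1 higher became 0 without either TDysf replicate.

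Other genes linked to T cell quiescence were lower in TDysf than in Acute-7d when they were called. Of 18 listed, 4 were called lower and 0 higher, with a median log2 fold change of -0.73. Bach2, a transcriptional repressor that holds back effector genes, had 62.1 and 82.7 normalized counts in TDysf and 1515 and 1552 in Acute-7d (log2 -4.40, adjusted p = 0.00432). Klf2, which maintains quiescence and is also in the list of FOXO targets, had 104 and 133 against 1868 and 1582 (log2 -3.86, adjusted p = 0.00185). Runx1 had 306 and 297 against 967 and 948 (log2 -1.66, adjusted p = 0.000449). The number called lower was 4 or 5 without each library in turn. Against Effector 5 of these genes were called higher and 1 lower in Acute-7d, and 1 higher and 2 lower in TDysf. The 5 became 3 without Effector replicate 1, 1 without Acute-7d replicate 1 and 3 without Acute-7d replicate 2, and the 1 lower became 0 without each library in turn. In TDysf the 1 higher became 2 without Effector replicate 1 and 0 without TDysf replicate 1.

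Genes of DNA replication and mitosis were read beside the members. Of 21 listed proliferation genes, 19 were called lower in Acute-7d than in Effector (median log2 fold change -3.17) and 3 lower in TDysf than in Effector (median -1.34). The 2 Acute-7d libraries stood far apart in some of these genes. Mki67 had 1096 normalized counts in replicate 1 and 3371 in replicate 2, and Ccna2 had 152 and 775, while Mcm6 had 2570 and 2818. In TDysf against Acute-7d 1 was called higher, Ccne1, cyclin E1, with 413 and 427 normalized counts in TDysf and 122 and 171 in Acute-7d (log2 1.54, adjusted p = 0.0492), and the median was 1.78. Among genes with a mean of at least 50 normalized counts, 14 of the 21 were called higher in TDysf than in Acute-7d. Ccne1 lost its call without either Acute-2d replicate, Acute-7d replicate 1 or either TDysf replicate, with 0 called, and without Acute-7d replicate 2 there were 5 called. The 19 became 1 to 10 without any 1 library other than Acute-7d replicate 2. The 3 became 0 without Effector replicate 2 or any 1 Acute-2d or TDysf replicate and 7 without Effector replicate 1.

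**Figure D4:**
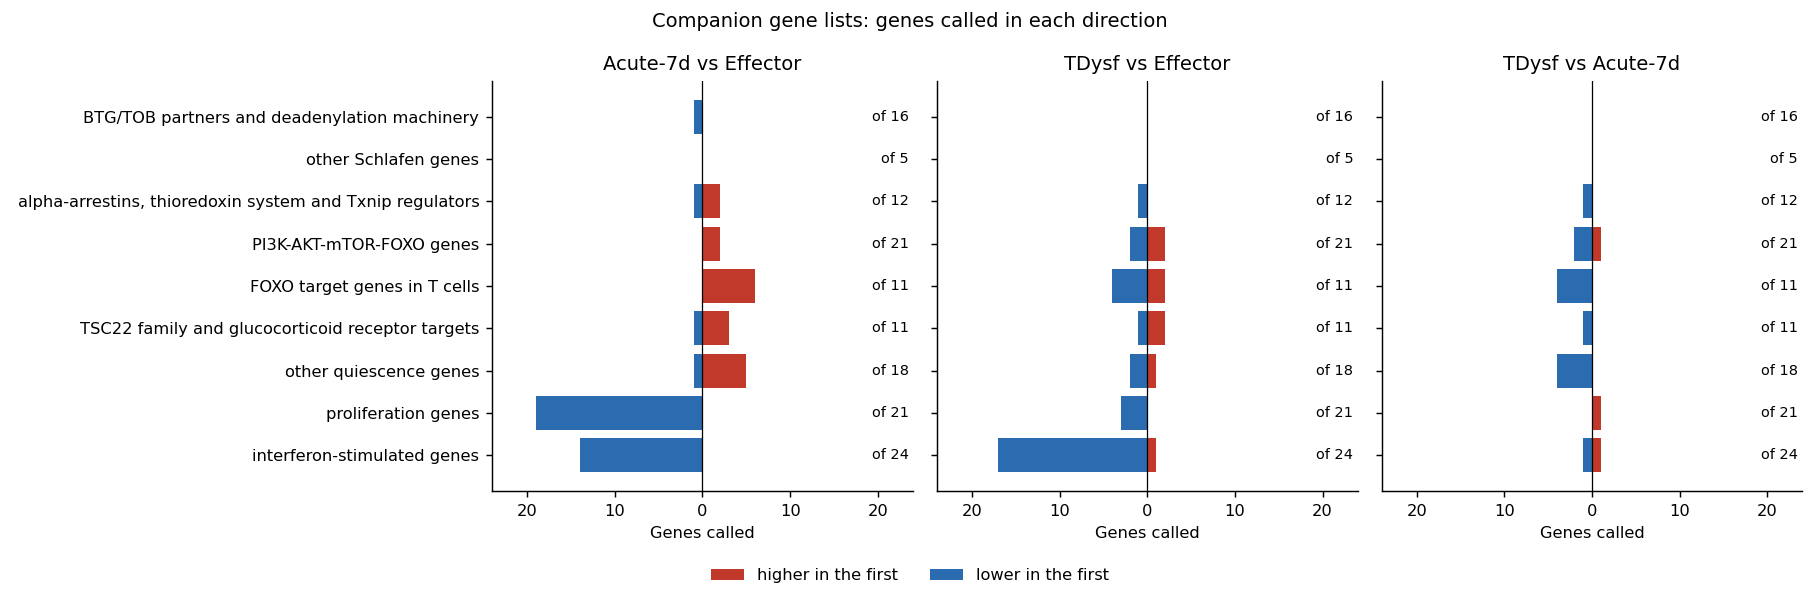
Number of genes called in each of 9 companion lists (x axis, red to the right for higher and blue to the left for lower in the first-named group), with the number in the table at the right of each bar. Proliferation genes are called lower in Acute-7d than in Effector (19 of 21), while at most 4 genes of any list are called in TDysf against Acute-7d.

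No member passed the test between the 2 rested groups, which differ in whether stimulation ended on day 2 or day 7. Acute-7d and Acute-2d libraries overlapped for 7 members and were apart for Tsc22d3, Txnip and Slfn1, where 32.1% of all genes were apart. The log2 fold changes of the members ran from -0.69 for Tsc22d3 to 0.39 for Slfn5, and the 95% interval of Tsc22d3 (-1.56 to 0.19) still allows a difference of over 2-fold.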

How the data were processed

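RNA-Seq was deposited as 1 table of 24303 genes over 8 libraries. Per the methods, the authors used STAR with the mm10 genome, estimated counts per RefSeq transcript model in Partek Flow and scaled them by DESeq2 median ratios, so the deposited signal values are normalized counts, not whole reads. The versions of STAR and DESeq2 and the strandedness of counting are not given in the sources used here. Between 51.0% and 74.9% of values under 1000 reads were whole multiples of 1 read (tolerance 0.01), so a count model was not used.

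From these, log2(normalized count + 1) was fitted with limma 3.58.1 (R 4.3.3; lmFit, eBayes with trend) over all genes and 4 groups, without covariates and with no filter. P-values are two-sided and Benjamini-Hochberg adjusted. Calls needed a fold change of at least 2 and adjusted p under 0.05. With 2 libraries per group an exact permutation test cannot reach 0.05. At the lowest member count, counting error was 7.16%. Alternatives covered pseudocounts, filters, scaling, samples, covariates and thresholds. The 10 members and all lists were chosen with earlier results of these data known. Companion genes were named as the up to 3 called with the greatest change in TDysf against Acute-7d, or else the 2 highest, plus paralogs of the members; 1 gene that this rule names is not reported here. Genes called in other comparisons and named beside them (such as Cnot9, Foxo1, Foxo3 and Slc2a1) were chosen after their values were seen. Positions are from GENCODE vM21 and promoters from RefSeq (GRCm38.p6), matched by symbol. The fit was tested on simulated data.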

Additional observations from a re-analysis of the deposited data

How the results depend on the processing

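Over 20 alternatives for each of 60 member and comparison pairs, 1049 values kept their direction and side of the threshold, 80 lost a call, 38 gained one and 33 changed sign. The number of members called in TDysf against Acute-7d (2) was 1 when those groups were fitted alone, 0 with the RESUB prefix as a term and 0 to 3 without 1 replicate. In TDysf against Acute-2d (3) it was 6 when genes were kept by a mean of 50 or more or a maximum of 50 or more, 6 at an unadjusted p and 0 to 4 without 1 replicate. In TDysf against Effector (4) it was 1 for the groups alone, 0 with the RESUB term and 0 to 4 without 1 replicate. In Acute-7d against Effector (3) it was 0 for the groups alone, 1 with the RESUB term and 0 to 2 without 1 replicate. In Acute-2d against Effector (3) it was 6 under both filters and at an unadjusted p, 1 for the groups alone, 1 with the RESUB term and 0 to 3 without 1 replicate. In Acute-7d against Acute-2d (0) it was 0 to 0 without 1 replicate. The RESUB term is set by the 2 Acute-7d libraries alone, which also differ in sex by Xist and Y-linked genes. A fit of 2 groups has fewer degrees of freedom. For the rest the cause was not tested.

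The log2 fold changes that changed sign were not called, and the largest of them with all libraries was -0.66, for Btg2 in Acute-7d against Acute-2d. With equal 75th percentiles they were Btg2 in TDysf against Acute-2d (-0.0158) and Tob2 in Acute-7d against Effector (0.0114), and with quantile normalization Txnip in Acute-7d against Acute-2d (0.0332). With the RESUB term they were Pik3ip1 in TDysf against Effector (-0.4381), Btg2 (-0.0995) and Tob2 (0.0336) in Acute-7d against Effector, Tob2 (0.0828) and Slfn1 (-0.3132) in Acute-2d against Effector, and Tob2 in Acute-7d against Acute-2d (-0.0492). Without 1 replicate, Btg2 ranged from -0.6222 to 0.7072 in TDysf against Acute-2d, and in TDysf against Effector Pik3ip1 ranged from -0.2183 to 0.5398 and Tsc22d3 from -0.6987 to 0.1124. The ranges in Acute-7d against Effector were -0.0995 to 0.3545 for Btg2, -0.2995 to 0.0972 for Tob2, -0.3805 to 0.0451 for Slfn2 and -0.6266 to 0.0264 for Slfn1. Those in Acute-2d against Effector were -0.5262 to 0.1526 for Tob2, -0.4502 to 0.0849 for Slfn2 and -0.3095 to 0.3434 for Slfn1. Between Acute-7d and Acute-2d they were -0.3853 to 0.1754 for Btg1, -1.3288 to 0.0006 for Btg2, -0.6315 to 0.1034 for Tob1, -0.2538 to 0.4251 for Tob2 and -0.2526 to 0.2825 for Slfn2.

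Deviations of libraries with the same replicate number correlated at -0.20 to 0.20 across 12028 genes, so the numbers were not taken as pairs. With the replicate number as a block, 2 members were called in TDysf against Acute-7d, 2 in TDysf against Acute-2d, 4 in TDysf against Effector, 2 in Acute-7d against Effector, 3 in Acute-2d against Effector and 0 in Acute-7d against Acute-2d, and the proliferation genes called in Acute-7d against Effector were 9 in place of 19. Tob1 lost its calls in TDysf against Acute-2d (adjusted p = 0.0705) and in Acute-7d against Effector (adjusted p = 0.0517) under the block. Of 540 alternative list counts, 153 moved by over 1.5 times. Over all genes, calls ranged from 422 (without TDysf replicate 1) to 3184 (unadjusted p) against 1353 in TDysf against Acute-7d, from 656 to 3517 against 1787 in TDysf against Acute-2d, from 386 to 4060 against 2241 in TDysf against Effector, from 155 to 3515 against 1958 in Acute-7d against Effector, from 235 to 3705 against 2135 in Acute-2d against Effector and from 1 to 910 against 41 in Acute-7d against Acute-2d. Fits that left 1 library in a group assume that it varies like the others.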
